A study of Mus musculus with 9 samples.

Results

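The genes described here encode 10 transcriptional regulators of cardiac energy metabolism: the peroxisome proliferator-activated receptors Ppara, Ppard and Pparg, their dimer partners Rxra and Rxrg, the estrogen-related receptors Esrra and Esrrg, the coactivators Ppargc1a and Ppargc1b, and nuclear respiratory factor Nrf1. They were taken by name, as the rows of the count tables whose mouse Ensembl ID maps to these symbols. The names were chosen with earlier results of these data known. All 10 were found among 53465 gene IDs, and all 10 passed the filter on low counts that left 13825 genes for testing. Nrf1 here is nuclear respiratory factor 1, not Nfe2l1, which has carried the same abbreviation.

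Hearts of NOD-SCID mice, whose deficient immunity lets them accept foreign cells, were the source of the RNA sequenced. The labels give the border zone of the infarct as the sampled region for 3 groups of 3 libraries: hearts with sham surgery, hearts in which a coronary artery was ligated, and ligated hearts that were also implanted with cells named FOXO3-GE-MPCs. These groups are called sham, ligation and cells below. All 3 groups share the strain. Age, sex, the time after ligation and the species of the implanted cells are not given in the sources used here, nor is it stated that each library came from a separate animal, so the p-values below measure only the spread between these libraries. The same region label is used for the sham hearts, which had no ligation.

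PPARs are nuclear receptors that bind fatty acids and, paired with a retinoid X receptor (RXR), switch on genes of fatty acid uptake and oxidation. Estrogen-related receptors (ERRs) act without a known hormone on genes of the Krebs cycle and the respiratory chain. PGC-1alpha and PGC-1beta, the products of Ppargc1a and Ppargc1b, bind no DNA themselves and act by docking on these receptors and on NRF1, which controls genes for mitochondrial DNA maintenance. In the adult heart, which runs largely on fatty acids, this circuit sets much of the capacity for mitochondrial ATP production.

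The promoters of 9 of the 10 genes matched in RefSeq's table for GRCm38.p6, in windows of 300 bases that span 250 bases before and 50 after a start site. The 9 genes have 17 such windows, 4 for Esrrg, 3 for Pparg, 2 each for Rxra, Rxrg and Nrf1, and 1 each for the others. Some of these starts are internal to the gene, as marked below for Ppara and Rxrg. The windows were searched for motifs of these regulators and for general promoter motifs, and the matches are set beside those of all windows below. The stretches below, free of annotated exons, belong to 4 of the 5 genes that changed after ligation and were chosen after the motif search. Capitals mark the motif named in each case.

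Ppara, GRCm38.p6 chr15:85735714-85735775, plus strand, NRF1 palindrome 31 bases before a RefSeq start inside the annotated gene: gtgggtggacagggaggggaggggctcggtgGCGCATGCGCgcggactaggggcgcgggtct

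Esrra, GRCm38.p6 chr19:6921814-6922058, minus strand, NRF1 core 34 bases before the start: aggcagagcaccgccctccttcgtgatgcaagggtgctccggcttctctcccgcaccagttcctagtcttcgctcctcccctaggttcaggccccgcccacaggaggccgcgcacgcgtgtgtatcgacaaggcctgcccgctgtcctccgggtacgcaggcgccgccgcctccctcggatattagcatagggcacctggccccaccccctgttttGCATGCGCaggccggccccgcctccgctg

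Ppargc1a, GRCm38.p6 chr5:51567727-51567975, minus strand, the reverse complement of a cyclic AMP response half-site 49 bases before the start: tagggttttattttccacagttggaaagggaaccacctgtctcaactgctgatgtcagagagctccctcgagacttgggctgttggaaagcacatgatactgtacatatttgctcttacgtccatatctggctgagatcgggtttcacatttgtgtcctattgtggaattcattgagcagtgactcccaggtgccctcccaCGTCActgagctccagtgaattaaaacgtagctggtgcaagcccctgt

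Rxrg, GRCm38.p6 chr1:167618015-167618264, plus strand, a nuclear receptor half-site 88 bases before an internal start: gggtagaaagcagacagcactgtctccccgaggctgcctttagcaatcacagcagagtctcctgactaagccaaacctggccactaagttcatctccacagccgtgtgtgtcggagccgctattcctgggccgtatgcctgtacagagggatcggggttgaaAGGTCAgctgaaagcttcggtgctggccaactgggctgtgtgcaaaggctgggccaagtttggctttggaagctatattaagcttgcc

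Motifs were searched on both strands by their letters alone, so a match is a description of the sequence and not a bound site. The NRF1 palindrome, capitalized in the Ppara stretch, was in 0.971% of 32851 promoter windows of the same length, and in 1 of the 17 windows here, that of Ppara. Its core GCATGCGC, which overlaps the palindrome, was in 2.71% of all windows and in 2 of the 17, of Ppara and Esrra. The half-site AGGTCA, read by PPARs, RXRs and ERRs alike, was in 16.3% of all windows and in 4 of the 17, 1 each of Rxrg and Rxra and 2 of Pparg. The cyclic AMP half-site TGACG was in 20.8% of all windows and in 3 of the 17, of Ppara, Ppard and Ppargc1a. The TATA box letters TATAAA, in 13.6% of all windows, were in 3 of the 17, of Esrrg, Nrf1 and Pparg. The ERR extended half-site TNAAGGTCA (1.28% of all windows), the direct repeat of AGGTCA with 1 base between its copies (0.0396%), the E-box CACGTG (7.15%) and the full cyclic AMP element TGACGTCA (1.79%) were in 0 of the 17.

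Levels are given as CPM, the counts of a gene scaled to a common library size with TMM factors that bring the bulk of genes to the same level, and the error given with a mean is the SD of 3 libraries. Gene counts per library ranged from 4549268 to 7515052. At that depth 3 counts, the smallest level taken as detectable, corresponded to 0.375 to 0.639 CPM, and all 10 genes lay above it in every library. Divided by the exonic length of each gene, the order in sham ran from Esrra (39.7 CPM per kb) and Rxrg (33.5) through Rxra (13.1), Pparg (9.22) and Ppargc1a (9.04) to Ppard (4.26), Esrrg (4.16), Ppargc1b (2.17), Nrf1 (1.81) and Ppara (1.65). The ranges over libraries overlapped for the neighbours Pparg and Ppargc1a, Ppard and Esrrg, Ppargc1b and Nrf1, and Nrf1 and Ppara. Ppara, the PPAR best known for fatty acid oxidation in heart, was thus the lowest of the 10 per length in sham, and it was the eighth in order in both other groups. Its level per length was 2.43 CPM per kb in ligation and 3.34 CPM per kb with cells.

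**Figure D1:**
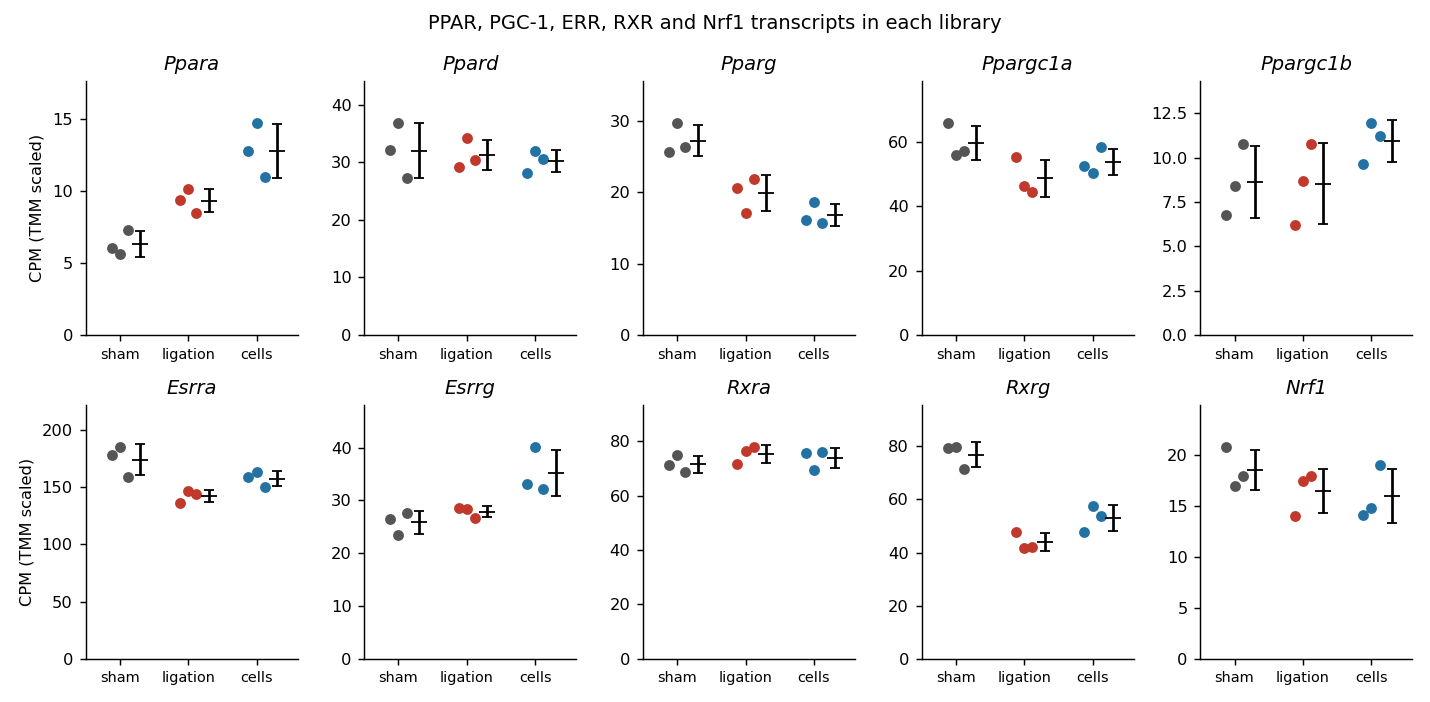
Level of each of the 10 genes in every library, in TMM-scaled CPM on a linear axis that starts at 0. Coloured points are libraries, and the black bar beside each group is the mean with its SD (n = 3). Rxrg stands at 71.6 to 79.7 CPM in sham and at 41.8 to 47.7 CPM in ligation, while Ppara is lowest in sham and highest with cells.

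After ligation, 5 of the 10 genes passed an adjusted p of 0.05 (edgeR, quasi-likelihood F test, with the Benjamini-Hochberg method over 13825 genes). Rxrg, Pparg, Ppargc1a and Esrra fell and Ppara rose. Of all genes tested, 38.2% passed in that comparison (20.1% higher and 18.0% lower), so the count of 5 by itself does not set these regulators apart. In the comparison of cells with ligation 2 of the 10 passed, Esrrg and Rxrg, both higher with cells, where 9.87% of all genes passed (4.19% higher and 5.69% lower). In the comparison of cells with sham 4 passed: Ppara and Esrrg were higher, and Pparg and Rxrg lower. There 40.9% of all genes passed (21.0% higher and 20.0% lower). The 3 comparisons share libraries, so a value in one is not independent of the others.

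The ranges of the groups did not overlap for 5 of 10 genes between ligation and sham (47.6% of all genes), for 3 of 10 between cells and ligation (27.2%) and for 4 of 10 between cells and sham (49.8%). Fold changes are relative to the bulk of genes, and that choice matters here. Scaling to library totals alone moved the median gene by 0.19 on the log2 scale for ligation against sham and by 0.16 for cells against sham. With it the share of all called genes that were higher went from 52.7% to 78.7% for ligation against sham, from 42.4% to 32.0% for cells against ligation, and from 51.2% to 73.1% for cells against sham. Mitochondrially encoded genes held 19.1% to 19.9% of the gene counts of sham libraries, against 12.6% to 13.9% after ligation and 14.3% with cells.

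**Figure D2:**
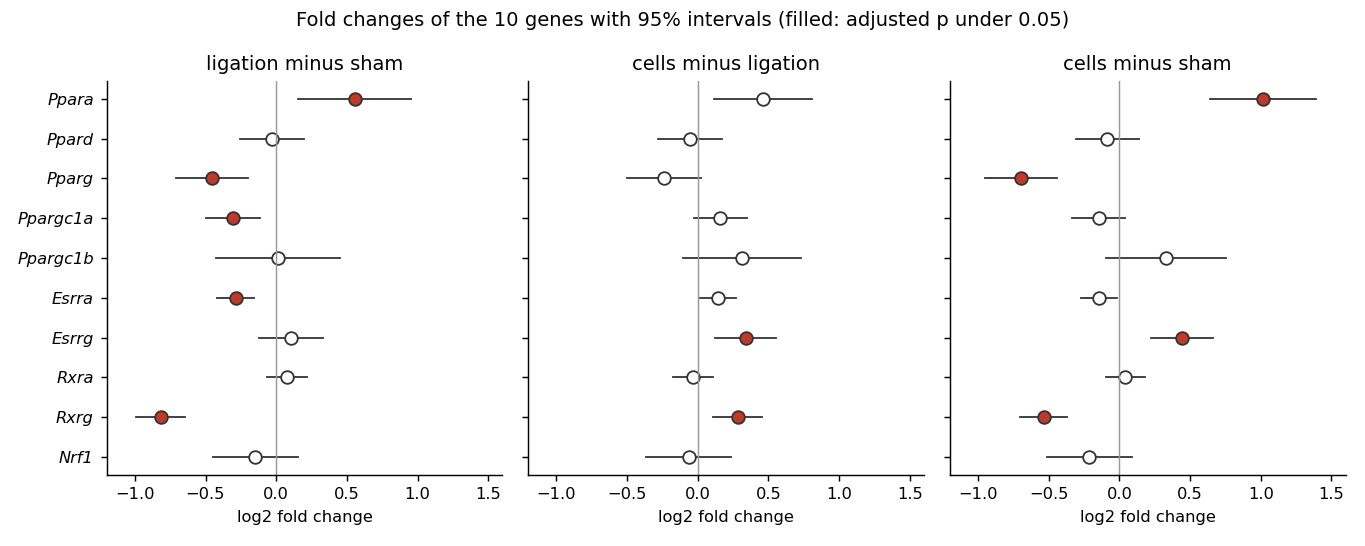
Log2 fold change of each gene in the 3 comparisons (points) with its 95% interval (lines). Filled points passed an adjusted p of 0.05 over all genes tested. After ligation 1 gene lies above 0 and 4 lie below it among the filled points, and with cells against ligation both filled points lie above 0.

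Ppara (ENSMUSG00000022383, chr15:85734983-85802819 of GRCm38, plus strand) encodes the receptor that drives fatty acid oxidation in liver and heart. It stood at 6.05, 5.60 and 7.30 CPM in the sham libraries, at 9.38, 10.1 and 8.50 CPM in ligation and at 12.8, 14.7 and 10.95 CPM with cells. The 3 groups did not overlap: each ligation library lay above each sham library, and each cells library above each ligation library. Ppara rose 1.47-fold after ligation (log2 fold change 0.55, SE 0.19, edgeR adjusted p 0.0263). The difference between cells and ligation was 0.46 (SE 0.17, 95% interval 0.11 to 0.81) and did not pass (edgeR adjusted p 0.0919). Against sham, Ppara was 2.02-fold higher with cells (1.02, SE 0.18, edgeR adjusted p 0.000123). These levels rest on 34 to 106 counts per library, and the rise after ligation was not called without sham replicate 1, sham replicate 2 or ligation replicate 2 (log2 fold changes of 0.53, 0.47 and 0.49, edgeR adjusted p 0.0707, 0.0932 and 0.0946), nor by DESeq2 (0.55, adjusted p 0.0664), nor with libraries of a shared header stem summed (0.52, edgeR adjusted p 0.0722).

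Pparg (ENSMUSG00000000440, chr6:115360951-115490399, plus strand), the receptor that directs adipocyte differentiation and is also made in endothelial cells and macrophages, went the other way. It stood at 25.6, 29.7 and 26.4 CPM in sham, at 20.7, 17.1 and 21.9 CPM in ligation and at 16.2, 18.6 and 15.7 CPM with cells. Sham lay above both other groups, which overlapped each other. Pparg fell by 0.45 on the log2 scale after ligation (SE 0.12, edgeR adjusted p 0.00535), and it was lower with cells than in sham by a log2 fold change of -0.69 (SE 0.12, edgeR adjusted p 0.000117). The difference between cells and ligation was -0.24 (95% interval -0.50 to 0.02, edgeR adjusted p 0.273). On library totals alone the change after ligation was -0.27 and did not pass (edgeR adjusted p 0.0853).

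Ppard (ENSMUSG00000002250), a PPAR expressed in most tissues, stood between 27.3 and 36.7 CPM in sham, 29.2 and 34.2 CPM in ligation and 28.1 and 31.9 CPM with cells. Its groups overlapped throughout. The differences were -0.03 for ligation against sham (95% interval -0.26 to 0.20), -0.05 for cells against ligation (-0.28 to 0.17) and -0.08 for cells against sham (-0.31 to 0.14).

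Because RNA came from whole tissue, fewer cells of a type and less RNA per cell cannot be told apart. Endothelial markers fell together with Pparg after ligation. All 7 of 7 endothelial markers fell after ligation, and their summed level went from 2045 to 2158 CPM in sham to 1352 to 1426 CPM in ligation and 1473 to 1514 CPM with cells. Macrophage markers went the other way after ligation: 7 of 8 rose, and all 8 fell with cells against ligation. Their sum was 491 to 520.2 CPM in sham, 711 to 736 CPM in ligation and 287.8 to 288.1 CPM with cells. No marker of either list was at 0 in all libraries, and the part of these cell types in the Pparg levels was not tested.

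Most adipocyte markers also moved against Pparg. After ligation 6 of the 7 tested rose, among them Adipoq, which encodes the fat cell hormone adiponectin. Adipoq stood at 1.42, 1.65 and 1.27 CPM in sham, at 21.9, 20.6 and 22.8 CPM in ligation and at 16.7, 17.9 and 19.2 CPM with cells. It rose by 3.89 on the log2 scale after ligation (edgeR adjusted p 1.99e-12). Cfd, the fat cell serine protease adipsin, rose from 7.77 to 147 CPM (4.23, edgeR adjusted p 1.80e-18). The exception was Fabp4, a fatty acid binding protein of fat cells that is also made in endothelial cells, which fell by 0.66. Fabp4 made up most of the summed level of the list, 1450 to 1640 CPM in sham, 1155 to 1237 CPM in ligation and 1226 to 1382 CPM with cells. Ucp1, the marker of brown fat, was too low to test. It was at 0 in all sham and ligation libraries, but not in all libraries with cells. With cells against ligation, 0 of these 7 markers passed by edgeR, DESeq2 or limma-voom, and 2 had an unadjusted edgeR p under 0.05. Without the filter on low counts, edgeR called Fabp4 higher in that comparison.

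**Figure D3:**
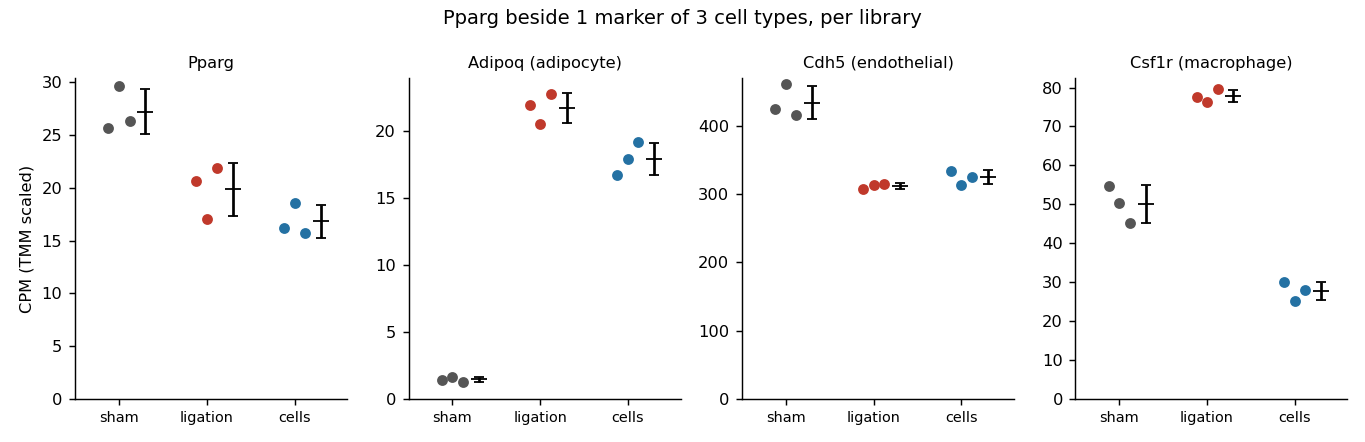
Pparg beside a single marker each of adipocytes (Adipoq), endothelial cells (Cdh5) and macrophages (Csf1r), in TMM-scaled CPM per library on linear axes from 0, with the mean and SD of each group (n = 3). Pparg and Cdh5 are highest in sham, Adipoq is lowest there, and Csf1r is highest in ligation and lowest with cells.

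The RXR partner genes split. Rxrg (ENSMUSG00000015843, chr1:167598384-167639623, plus strand), the RXR made mainly in muscle and brain, stood at 79.4, 79.7 and 71.6 CPM in sham, at 47.7, 41.8 and 42.1 CPM in ligation and at 47.7, 57.6 and 53.7 CPM with cells. All sham libraries lay well above all others. Rxrg fell by 0.82 on the log2 scale after ligation (SE 0.0825, edgeR adjusted p 9.59e-08), to 0.568 of its sham level. With TMM scaling this was the largest change among the 10 genes in that comparison. On library totals alone Ppara changed more (0.74, against -0.63 for Rxrg). The call of Rxrg held in all 19 alternative analyses, with values between -0.87 and -0.63.

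With cells, Rxrg was higher than in ligation by 0.28 (SE 0.0841, edgeR adjusted p 0.0379) and remained lower than in sham by a log2 fold change of -0.54 (SE 0.0797, edgeR adjusted p 1.64e-05). The cells and ligation groups overlapped, since cells replicate 1 lay level with ligation replicate 1. That increase with cells was lost in 9 of 19 alternatives, including library totals (0.25, edgeR adjusted p 0.0615), DESeq2 (adjusted p 0.0706) and the fits without ligation replicate 2 or 3 or without cells replicate 2 or 3 (edgeR adjusted p 0.156, 0.149, 0.168 and 0.104), while its direction held in all of them.

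Rxra (ENSMUSG00000015846), the RXR found in most cell types, stood between 68.7 and 75.0 CPM in sham, 71.6 and 77.9 CPM in ligation and 69.6 and 75.9 CPM with cells, and its groups overlapped. The differences were 0.08 for ligation against sham (95% interval -0.06 to 0.22), -0.03 for cells against ligation (-0.17 to 0.10) and 0.04 for cells against sham (-0.10 to 0.18). On library totals alone it passed as higher after ligation (0.27, edgeR adjusted p 0.00402) and with cells against sham (0.20, edgeR adjusted p 0.0230).

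Esrra (ENSMUSG00000024955, chr19:6910977-6921813, minus strand), the ERR that PGC-1alpha uses to raise respiratory chain genes, was the most abundant of the 10 genes per length in all 3 groups. It stood at 178, 185 and 159 CPM in sham, at 136, 147 and 144 CPM in ligation and at 159, 163 and 150.1 CPM with cells. Ligation was the lowest group and overlapped neither of the others. Esrra fell by 0.29 on the log2 scale after ligation (SE 0.0627, edgeR adjusted p 0.00100). The differences of 0.14 between cells and ligation (95% interval 0.01 to 0.27) and of -0.14 between cells and sham (-0.27 to -0.02) did not pass, with edgeR adjusted p 0.171 and 0.0691. The latter passed without sham replicate 3 (-0.21, edgeR adjusted p 0.0132), without ligation replicate 3 (-0.16, edgeR adjusted p 0.0483) and with mitochondrially encoded genes removed (-0.16, edgeR adjusted p 0.0415), and on library totals alone its sign turned (0.01, edgeR adjusted p 0.880). The fall after ligation was not called on library totals (-0.10, edgeR adjusted p 0.219). Exons of Esrra share 164 bases with Trmt112 on the opposite strand and with Mir6990, and the strand setting of the counting is not given in the sources used here, so reads from those bases are uncertain.

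Esrrg (ENSMUSG00000026610, chr1:187608791-188214885, plus strand), the ERR most tied to heart and oxidative muscle, stood at 26.5, 23.4 and 27.6 CPM in sham, at 28.6, 28.4 and 26.8 CPM in ligation and at 33.2, 40.1 and 32.1 CPM with cells. The cells group lay above both others, which overlapped. Esrrg was 1.26-fold higher with cells than in ligation (0.34, SE 0.10, edgeR adjusted p 0.0401) and 1.36-fold higher than in sham (0.44, SE 0.10, edgeR adjusted p 0.00182). Ligation differed from sham by 0.11 (95% interval -0.12 to 0.33, edgeR adjusted p 0.478), and on library totals alone by 0.29 (edgeR adjusted p 0.0303). The increase over ligation was lost in 8 of 19 alternatives, including library totals (0.31, edgeR adjusted p 0.0608), DESeq2 (adjusted p 0.0986) and the fits without ligation replicate 1, 2 or 3 (edgeR adjusted p 0.0707, 0.0964 and 0.156) and without cells replicate 2, the highest library (0.23, edgeR adjusted p 0.237). The difference from sham held in all 19.

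Ppargc1a (ENSMUSG00000029167, chr5:51454250-51567726, minus strand), which encodes the inducible coactivator PGC-1alpha, stood at 65.7, 55.9 and 57.2 CPM in sham, at 55.2, 46.3 and 44.3 CPM in ligation and at 52.5, 50.4 and 58.3 CPM with cells. Sham lay above ligation by a narrow gap, and the cells group overlapped both. Ppargc1a fell by 0.31 on the log2 scale after ligation (SE 0.0910, edgeR adjusted p 0.0111). It was not called without sham replicate 1, ligation replicate 2 or ligation replicate 3 (edgeR adjusted p 0.0750, 0.0541 and 0.0565), nor on library totals alone, where the change was -0.12 (edgeR adjusted p 0.298). The differences with cells were 0.16 against ligation (95% interval -0.03 to 0.35) and -0.15 against sham (-0.33 to 0.04).

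Ppargc1b (ENSMUSG00000033871), which encodes PGC-1beta, a coactivator held to set basal mitochondrial content, stood at 6.76, 8.40 and 10.8 CPM in sham, at 6.18, 8.68 and 10.8 CPM in ligation and at 9.65, 11.9 and 11.2 CPM with cells. The groups overlapped, with 29 to 86 counts per library. The differences were 0.01 for ligation against sham (95% interval -0.43 to 0.45), 0.32 for cells against ligation (-0.10 to 0.73) and 0.33 for cells against sham (-0.09 to 0.75). Intervals of that width leave changes of the size seen in Ppargc1a undetectable at this depth.

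Nrf1 (ENSMUSG00000058440), the factor through which PGC-1alpha reaches mitochondrial DNA maintenance genes, stood at 20.8, 17.0 and 17.9 CPM in sham, at 14.1, 17.5 and 18.0 CPM in ligation and at 14.2, 14.8 and 19.0 CPM with cells. Its groups overlapped. The differences were -0.15 for ligation against sham (95% interval -0.45 to 0.15), -0.06 for cells against ligation (-0.36 to 0.23) and -0.21 for cells against sham (-0.51 to 0.09).

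Most cardiomyocyte markers were lower after ligation and stayed lower than sham with cells. Of 8 markers 5 fell and 1 rose after ligation, and on library totals 5 fell and 3 rose. Their sum was 40460 to 41200 CPM in sham, 28660 to 31180 CPM in ligation and 27800 to 29240 CPM with cells. Fibroblast markers, of which 5 of 7 rose and 1 fell, summed to 1834 to 1878 CPM, 3060 to 3115 CPM and 2962 to 3038 CPM in the same order. Smooth muscle markers, with 3 of 4 tested lower, summed to 679.9 to 723 CPM, 507 to 529.9 CPM and 561 to 566 CPM. No marker of these lists was at 0 in all libraries. Their part in the changes of the 10 genes was not tested.

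Ratios of counts between related genes within a library do not depend on how libraries are scaled. The ratio of Ppara to Pparg was 0.234 ± 0.0442 (SD, n = 3) in sham, 0.479 ± 0.105 in ligation and 0.759 ± 0.0537 with cells, and the 3 groups did not overlap. The ratio of Ppara to Ppard was 0.203 ± 0.0588, 0.299 ± 0.0208 and 0.425 ± 0.0574, again without overlap. The ratio of Rxrg to Rxra was 1.07 ± 0.0377 in sham, 0.585 ± 0.0711 in ligation and 0.721 ± 0.09997 with cells, so that Rxrg counts exceeded Rxra counts only in the sham libraries.

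The ratio of Esrrg to Esrra was 0.150 ± 0.0237 (SD, n = 3) in sham, 0.196 ± 0.0119 in ligation and 0.223 ± 0.0197 with cells. For it and for Rxrg to Rxra, sham did not overlap with either other group, while ligation and cells overlapped. The ratio of Ppargc1a to Ppargc1b was 7.22 ± 2.26, 6.13 ± 2.50 and 4.95 ± 0.645, with overlap throughout. The 5 pairs, chosen after the files were seen, gave 15 exact two-sided permutation tests. Groups that did not overlap gave an exact permutation p = 0.1, the smallest value 3 against 3 libraries allow (Benjamini-Hochberg adjusted 0.15), so none could pass 0.05.

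**Figure D4:**
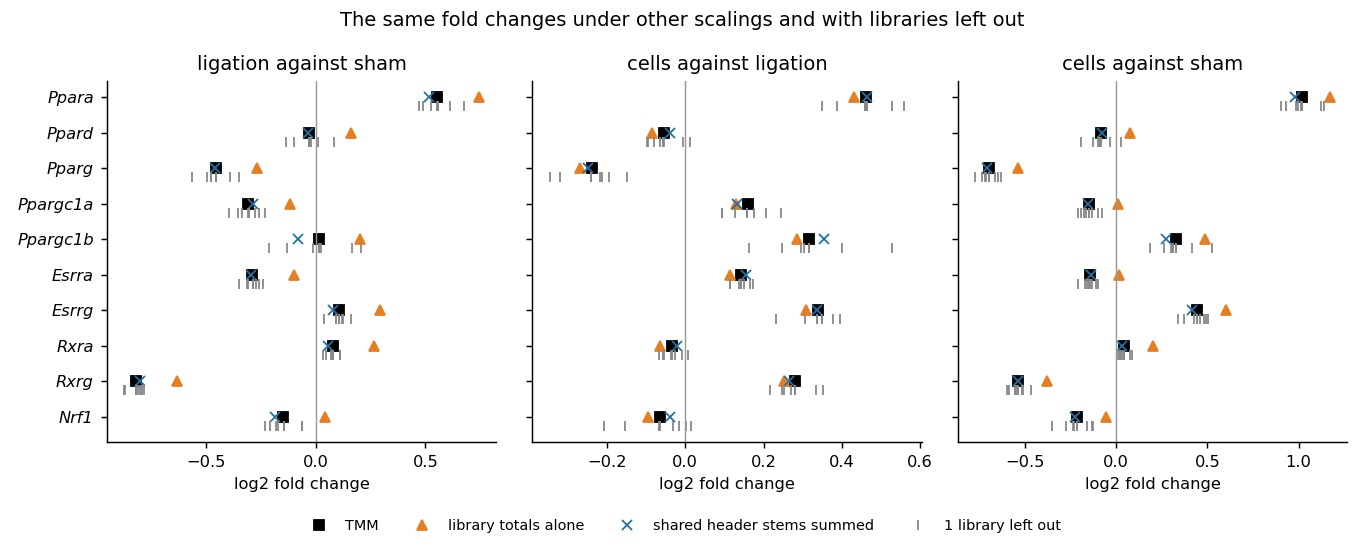
Log2 fold change of each gene with TMM scaling (squares), library totals alone (triangles), libraries with a shared header name summed (crosses) and 1 library left out (grey ticks), in the 3 comparisons; each panel has its own horizontal scale. Library totals move every gene to the right in both comparisons with sham, while Rxrg after ligation stays between -0.87 and -0.63 in all of them.

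Among 31 tested genes of fatty acid use and PPAR targeting, 21 fell and 2 rose after ligation, where 18.0% and 20.1% of all genes did. The list median was -0.43, against 0.01 over all genes tested, and on library totals 18 fell and 5 rose with a median of -0.24. With cells against ligation 14 were higher and 1 lower, where 4.19% and 5.69% of all genes were. The median was 0.18 against 0.0020 over all genes. Against sham 21 were lower and 3 higher with cells, where 20.0% and 21.0% of all genes were, with a median of -0.31. On library totals 15 were lower and 8 higher (median -0.15). Fgf21 was too low to test. After ligation the cardiomyocyte markers, 5 of 8 lower and 1 higher, had a median of -0.47, and the 7 endothelial markers, all lower, a median of -0.63. Between cells and ligation 1 cardiomyocyte marker was higher and 1 lower with cells (median -0.08), and 2 endothelial markers were higher and 0 lower (median 0.06). All 8 macrophage markers were lower with cells than in ligation, with a median of -1.32. The part of these cell types in the list's changes was not tested.

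The thioesterases Acot1 and Acot2, which release free fatty acids from their coenzyme A esters, fell by 2.87 and 1.12 on the log2 scale after ligation (edgeR adjusted p 4.46e-08 and 3.12e-08). In ligation replicate 1 Acot1 stood at the level of 3 counts, and the genes share 22.8% and 37.8% of their 31-base words with other genes. Both stayed below sham with cells, by log2 fold changes of -1.95 and -0.83. The beta-oxidation enzymes Hadh and Acaa2 fell by 1.05 and 1.03 after ligation, and were lower with cells than in sham by log2 fold changes of -0.95 and -0.93 (edgeR adjusted p 5.11e-11 and 6.39e-12). Cpt1b, the muscle enzyme that admits long-chain fatty acids to the mitochondrion, fell by 1.70 (edgeR adjusted p 0.000132), but it shares 79.7% of its 31-base words and 2744 exonic bases with the overlapping gene Gm44502 and its counts are uncertain.

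Other targets differed between ligation and cells. Ucp3, a mitochondrial carrier induced by fatty acids, stood at 11.6, 10.7 and 9.37 CPM in sham, at 3.41, 3.91 and 3.63 CPM in ligation and at 7.52, 6.52 and 7.78 CPM with cells. Its 3 groups did not overlap. Ucp3 fell by 1.52 on the log2 scale after ligation (edgeR adjusted p 5.38e-06) and was higher with cells than in ligation by 0.98 (edgeR adjusted p 0.00389).

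Pdk4, a classical PPAR target whose product turns glucose oxidation down, stood at 94.3, 97.2 and 89.2 CPM in sham, at 105.7, 95.7 and 92.1 CPM in ligation and at 170.2, 165 and 167.5 CPM with cells. The cells libraries stood far above the others, which overlapped. Pdk4 was higher with cells than in ligation by 0.78 (SE 0.0619, edgeR adjusted p 2.13e-08), and ligation differed from sham by 0.06 (edgeR adjusted p 0.508). Cd36, a fatty acid transporter, fell by 0.59 after ligation (edgeR adjusted p 7.09e-10) and was higher with cells by 0.29 (edgeR adjusted p 7.97e-05), at 1962 ± 93.1, 1300 ± 71.7 and 1594 ± 38.9 CPM (SD, n = 3).

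The exception with cells was Ucp2, an uncoupling protein also abundant in macrophages, which rose by 0.48 after ligation (edgeR adjusted p 1.35e-06) and was lower with cells than in ligation by a log2 fold change of -0.83 (edgeR adjusted p 4.29e-09). All 8 macrophage markers were lower in that comparison too, and their part in Ucp2 was not tested. Angptl4, a PPAR target that inhibits lipoprotein lipase, stood at 5.58, 6.77 and 5.62 CPM on average and passed in none of the comparisons (edgeR adjusted p 0.401, 0.567 and 0.973).

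**Figure D5:**
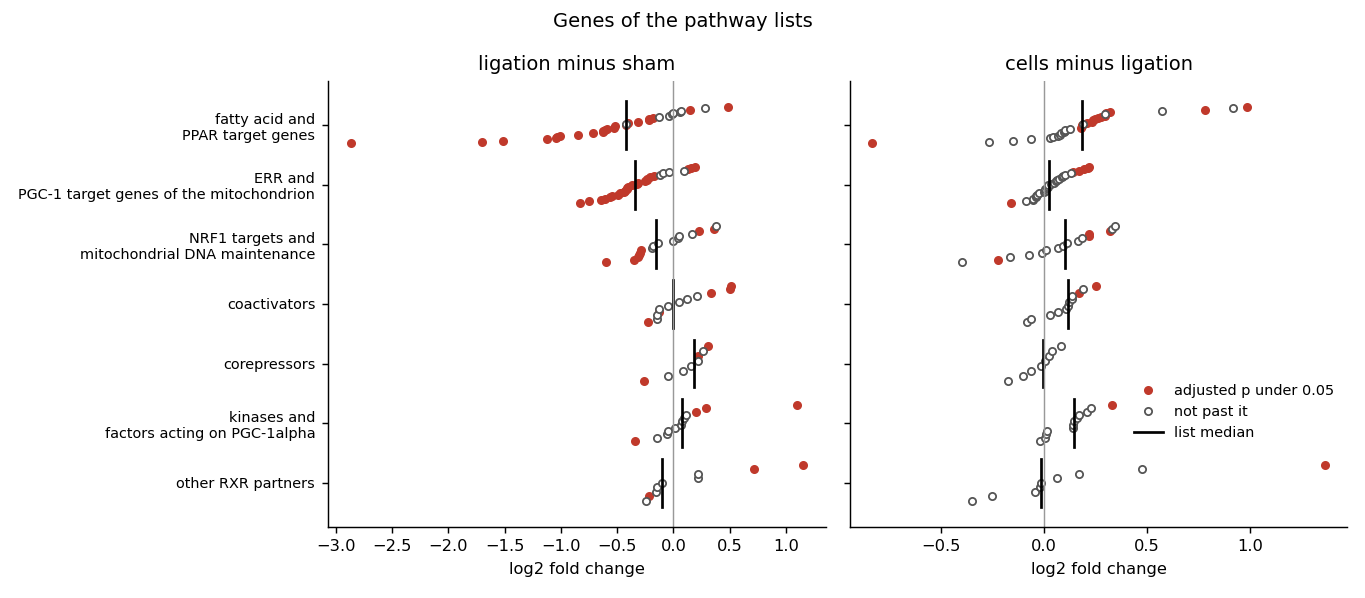
Log2 fold changes of the tested genes in 7 lists around these regulators, for ligation minus sham and cells minus ligation on separate scales. Filled points passed an adjusted p of 0.05, open points did not, and black bars are list medians; the vertical position within a list only separates the points. The upper 2 lists lie mostly below 0 after ligation, with medians of -0.43 and -0.345.

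Of 28 mitochondrial genes regarded as ERR and PGC-1 targets, 21 fell and 3 rose after ligation, where 18.0% and 20.1% of all genes did. The median was -0.345. On library totals 16 fell and 6 rose, with a median of -0.16. The cardiomyocyte markers fell beside this list too, with the median of -0.47 and the sums given above, and their part in its changes was not tested. Slc25a4, the ATP/ADP carrier of heart, fell from 6903 ± 164 to 3885 ± 176 CPM (SD, n = 3), by 0.83 on the log2 scale (edgeR adjusted p 3.44e-13). Cox4i1, a subunit of cytochrome c oxidase, and Uqcrc1, a core subunit of complex III, fell by 0.75 and 0.64. Idh3a, a Krebs cycle dehydrogenase subunit, fell by 0.23 (edgeR adjusted p 0.000240), which library totals alone reduced to -0.05.

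With cells against ligation 5 genes of the ERR and PGC-1 list were higher and 1 lower, where 4.19% and 5.69% of all genes were. The median of 0.03 turned to -0.00076 on library totals. Opa1, which fuses inner mitochondrial membranes, and the respiratory chain subunits Uqcrc2 and Ndufs1 were higher by 0.22, 0.21 and 0.19 (edgeR adjusted p 0.0165, 0.00201 and 0.0121). The call of Opa1 was lost without ligation replicate 2 or cells replicate 1 (edgeR adjusted p up to 0.101). That of Ndufs1 was lost without ligation replicate 3 (edgeR adjusted p 0.0751). Uqcrc2 shares 18.5% of its 31-base words with other genes and 504 exonic bases with Pdzd9. Ndufs1 shares 498 exonic bases with overlapping genes. Thus 14 of 31 genes of the fatty acid list and 5 of 28 of the respiratory list were higher with cells. Of all genes 4.19% were higher in that comparison. The difference between the lists was not tested. Against sham 19 of the 28 were lower with cells and 3 were higher, where 20.0% and 21.0% of all genes were. Slc25a4, Cox4i1 and Uqcrc1 were lower by log2 fold changes of -0.78, -0.81 and -0.67.

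Of 16 NRF1 targets and genes of mitochondrial DNA maintenance, 6 fell and 2 rose after ligation, where 38.2% of all genes passed, with a median of -0.16. On library totals 1 fell and 4 rose and the median turned to 0.03, so no direction is given for this list. Tfam, which packages mitochondrial DNA, fell by 0.30 after ligation (edgeR adjusted p 0.00705) and was higher with cells by 0.32 (edgeR adjusted p 0.0124), at 46.7 ± 2.61, 37.9 ± 2.04 and 47.6 ± 2.85 CPM (SD, n = 3). The fall of Tfam was not called on library totals (-0.11), nor the increase with cells without ligation replicate 1, ligation replicate 2 or cells replicate 3 (0.27 to 0.36 over all alternatives). Mterf3, a regulator of mitochondrial transcription, and Ssbp1, which binds single-stranded mitochondrial DNA, fell by 0.60 and 0.35 after ligation (edgeR adjusted p 0.00112 and 0.0289), the latter lost in 4 of 19 alternatives. Mterf3 shares 14.4% of its 31-base words with other genes. Tfb2m, a mitochondrial transcription factor that shares 36.4% of its 31-base words with other genes, rose by 0.36 (edgeR adjusted p 0.000369).

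With cells against ligation 3 of these 16 were higher and 1 lower, where 4.19% and 5.69% of all genes were. Tomm70a, a receptor for protein import into mitochondria, was higher by 0.22 (edgeR adjusted p 0.0288), and Tfb2m was lower by a log2 fold change of -0.22 (edgeR adjusted p 0.0423). These calls were lost in 8 and 12 of 19 alternatives. Against sham Tfb1m, Tomm70a and Gabpa were higher with cells by 0.71, 0.45 and 0.35 (edgeR adjusted p 0.0294, 1.09e-05 and 0.00212), and the call of Tfb1m was lost in 6 of 19.

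Counts for the partners and regulators of the receptors depended on the scaling. Of 12 coactivators 3 rose and 2 fell after ligation, with a median of -0.0020, and on library totals 5 rose and 0 fell (median 0.19). The genes that passed after ligation, 5 of 12 coactivators, 3 of 8 corepressors, 4 of 12 kinases and factors and 3 of 9 other RXR partners, are shares near the 38.2% of all genes, and their counts show nothing particular to these lists. The histone-modifying coactivators Carm1 and Kat2b rose by 0.51 and 0.51, and Ncoa2 rose by 0.33 (edgeR adjusted p 0.00270, 3.63e-06 and 0.00307). Carm1 shares 1025 exonic bases with Yipf2 on the opposite strand, and its call was lost without ligation replicate 3 (0.31). Against sham Kat2b, Carm1 and Med1, a Mediator subunit that receptors bind, were higher with cells by 0.63, 0.54 and 0.26 (edgeR adjusted p 1.54e-07, 0.00138 and 0.00932), the last not called without sham replicate 3 (edgeR adjusted p 0.0678). Lpin1, which works with PGC-1alpha and PPARalpha, fell by 0.22 after ligation (edgeR adjusted p 0.00585) and was higher with cells than in ligation by 0.25 (edgeR adjusted p 0.00808). On library totals its fall was -0.04 and was not called. Perm1, a muscle regulator induced by PGC-1 and ERRs, was at 239.7, 219 and 246.5 CPM on average. It was lower after ligation (-0.13, edgeR adjusted p 0.0489) and higher with cells against ligation (0.17, edgeR adjusted p 0.0363), calls lost in 12 and 8 of 19 alternatives. On library totals the direction after ligation turned (0.06). Pprc1, the third PGC-1 relative, passed in no comparison (edgeR adjusted p 0.198, 0.779 and 0.0715).

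Of 8 corepressors 2 rose and 1 fell after ligation (median 0.19), and on library totals 6 rose and 0 fell (median 0.38). With cells against ligation 0 passed by edgeR, DESeq2 or limma-voom, with 0 at an unadjusted edgeR p under 0.05. Of all genes 9.87% passed by edgeR in that comparison. Tbl1x, a subunit of a nuclear receptor corepressor complex, rose by 0.22 after ligation (edgeR adjusted p 0.0181, lost in 4 of 19 alternatives). Gps2, also found in such complexes, fell by 0.26 (edgeR adjusted p 0.0493), a call lost in 13 of 19 alternatives. Against sham Gps2 was lower with cells by a log2 fold change of -0.43 and Tbl1xr1 higher by 0.34 (edgeR adjusted p 0.00178 and 0.0141), the latter not called without cells replicate 1 (edgeR adjusted p 0.102). Ncor1 and Nrip1 passed in no comparison, with log2 fold changes of 0.15 and 0.22 after ligation (edgeR adjusted p 0.0875 and 0.161).

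Among 12 kinases and factors known to act on PGC-1alpha, 3 rose and 1 fell after ligation (median 0.07), and on library totals 6 rose and 0 fell (median 0.26). With cells against ligation 1 was higher, where 4.19% of all genes were. Prkab2, the muscle beta subunit of AMP-activated kinase, rose from 26.6 ± 2.79 to 57.1 ± 2.80 CPM (SD, n = 3), by 1.10 (edgeR adjusted p 1.88e-09), and stood at 64.0 ± 1.53 CPM with cells. The catalytic subunit gene Prkaa2 rose by 0.29 (edgeR adjusted p 0.00162). Against sham Prkab2, Prkaa2 and Prkaa1 were higher with cells by 1.26, 0.46 and 0.30 (edgeR adjusted p 1.43e-10, 1.23e-05 and 0.0242), the last lost in 6 of 19 alternatives. Mapk14, which encodes the kinase p38alpha, fell by 0.35 (edgeR adjusted p 0.000429), which was not called on library totals (-0.16). Creb1, a factor that induces Ppargc1a, was higher with cells than in ligation by 0.33 (edgeR adjusted p 0.0132), a call lost in 3 of 19 alternatives.

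Of 9 other RXR partner genes tested, 2 rose and 1 fell after ligation (median -0.10), and on library totals 4 rose and 0 fell (median 0.09). Vdr was too low to test. Nr4a1, an early-response orphan receptor that can pair with RXR, stood at 11.6, 12.4 and 12.2 CPM in sham, at 27.1, 24.7 and 28.6 CPM in ligation and at 66.5, 70.5 and 70.0 CPM with cells. The 3 groups did not overlap. Nr4a1 rose by 1.15 after ligation (edgeR adjusted p 2.17e-08) and was higher again with cells than in ligation by 1.36 (edgeR adjusted p 2.15e-10). Thra, a thyroid hormone receptor, fell by 0.21 after ligation (edgeR adjusted p 0.0196), a call lost in 4 of 19 alternatives. Against sham Nr1h3, the liver X receptor of macrophages, was lower with cells by a log2 fold change of -0.40 and the thyroid hormone receptor Thrb higher by 0.39 (edgeR adjusted p 0.0132 and 0.0314), calls lost in 2 and 4 of 19. With cells against sham 4 coactivators were higher and 1 lower, and on library totals 9 were higher and 0 lower. For corepressors the counts were 3 higher and 1 lower, and 6 and 1 on library totals. For the kinases and factors they were 5 and 1, and 9 and 0 on library totals. For the other RXR partners they were 3 and 1, and 3 and 0 on library totals. Of all genes 40.9% passed in that comparison.

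Of 4 close relatives outside the 10 genes, Rxrb, Esrrb and the estrogen receptor genes Esr1 and Esr2, Esr2 was too low to test and Rxrb and Esrrb passed in no comparison. Esr1, named here after its values were seen, stood at 0.890, 1.32 and 1.11 CPM in sham, at 2.34, 3.91 and 2.25 CPM in ligation and at 1.28, 3.19 and 1.87 CPM with cells. It rose by 1.35 after ligation (SE 0.43, edgeR adjusted p 0.0186), on at most 27 counts in a library, and the call was lost in 3 of 19 alternatives. It did not pass with cells against ligation or sham (edgeR adjusted p 0.559 and 0.110). Rxrb stood at 53.8, 47.3 and 47.8 CPM on average in sham, ligation and cells (edgeR adjusted p 0.0901 for ligation against sham, 0.937 for cells against ligation and 0.110 for cells against sham). Esrrb stood at 24.8, 25.1 and 25.8 CPM (0.891, 0.896 and 0.708 by the same edgeR test).

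Genes whose levels ran most like each regulator were ranked by Pearson's r of log2 CPM over the 9 libraries among 11146 genes with a mean of at least 5 CPM. With so many genes and 9 libraries that fall into 3 groups, a high r describes a shared order of groups and no more. For Rxrg they were Nop10 (r = 0.993), Uqcc1 (0.983), an assembly factor of complex III, and Mrpl54 (0.982), a mitochondrial ribosomal protein. For Ppargc1a they were Mmgt1 (0.966), Mterf3 (0.934), from the mitochondrial list above, and Sdhd (0.923), a subunit of succinate dehydrogenase. For Esrra they were Nudt7 (0.991), a peroxisomal coenzyme A hydrolase, Eif4ebp2 (0.960) and 2610008E11Rik (0.954).

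For Ppara the most alike were Bag3 (r = 0.978), a co-chaperone of muscle, Ldah (0.968), a lipid droplet protein, and Lpgat1 (0.968). For Pparg they were Rab7 (0.970), the pseudogene Rpl14-ps1 (0.969) and Spns1 (0.967). For Esrrg they were Rrm2b (0.969), Cfl2 (0.959), a muscle cofilin, and Hmgn5 (0.952). For Rxra, whose groups overlapped, they were Kctd17 (0.967), Map3k10 (0.955) and Gm9816 (0.924). For Ppargc1b they were Atrn (0.946), Napg (0.941) and Ebf2 (0.934). For Ppard they were Tor1b (0.916), Tinf2 (0.903) and Polr1c (0.873). Those of Nrf1 were Vps16 (0.915), Prrc2c (0.893) and Eif2a (0.889).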

How the data were processed

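RNA was measured by bulk sequencing in 9 libraries. Per the labels' protocols, TRIzol was used for the extraction and an NEBNext Ultra kit for the libraries. The authors deposited raw read counts per gene, 1 table per library, without normalization. The build is mm10, per the submitters' processing notes. The aligner, the counter, its strand setting and the annotation release are not given in the sources used here. Rows that name no gene (reads in no feature, 4.14% to 4.91% of reads, and ambiguous reads, 8.09% to 8.72%) were left out.

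Titles gave the groups and replicate numbers. For cells replicates 2 and 3 the source field names other FOXO members, and the title and treatment field, which name FOXO3, were followed. File headers of sham replicates 1 and 2 share a name stem, as do those of ligation replicates 2 and 3. All were kept as separate libraries. Replicate pairs differed by more than sampling noise (chi-square per gene, mean 1.93 to 3.73, median 0.678 to 0.927). That measure cannot tell 2 libraries of 1 heart from libraries of separate hearts. Whether libraries with a shared stem came from separate hearts was not tested, and summing them was an alternative chosen after seeing the headers.

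Counts were filtered with filterByExpr, scaled with TMM factors and fitted in 1 model with a mean per group (edgeR 4.0.16, R 4.3.3), with 6 residual degrees of freedom. Tests are two-sided, and a gene was called at a Benjamini-Hochberg adjusted p under 0.05 over 13825 genes. The SE is the fold change divided by the root of the F statistic. Alternatives used other scalings and filters, DESeq2 1.42.0, limma-voom 3.58.1, a fit of 2 groups, a replicate block, removal of mitochondrially encoded genes, and each library left out. The pipeline was tested on simulated data. Symbols, exon lengths, overlaps and shared 31-base words came from GENCODE on GRCm38, whose coordinates match mm10.

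All 10 regulators are named. From each list the up to 3 called genes of at least 5 CPM with the largest change per comparison are named, plus Pdk4, Cpt1b, Angptl4, Cd36, Tfam, Idh3a, Perm1, Pprc1, Ncor1, Nrip1, Rxrb and Esrrb, and the 3 genes most alike to each regulator. A result that this rule gave is not reported here. The markers named beside Pparg were chosen after their values were seen. The regulators and lists were chosen with earlier results of these data known. The floor of 3 counts covers counting error alone: the reads carry no molecular identifiers and may repeat a molecule. Figures were drawn with matplotlib 3.10.9.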

Additional observations from a re-analysis of the deposited data

How the results depend on the processing

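Each count and fold change of the 10 genes was recomputed in 19 alternative analyses. Rxrg after ligation, and Ppara, Pparg, Esrrg and Rxrg with cells against sham, kept their calls in all 19. For ligation against sham, leaving out single libraries gave 3 to 5 genes called, 3 without sham replicate 1 and 3 without ligation replicate 2. Library totals alone gave 4, of which 2 were among the original 5. For cells against ligation the count of 2 became 0 on library totals, 0 by DESeq2, 1 in a fit of the 2 groups alone, 0 with the replicate block, 0 with shared header stems summed, and 0 to 2 with single libraries left out. Limma-voom gave 2, and 4 of the 10 had an unadjusted edgeR p under 0.05. Same-numbered libraries showed little shared deviation (r between -0.119 and 0.0859), and the labels do not say that the numbers pair animals. Such r values cannot exclude a shared batch. The replicate block also gave Ppargc1b a value of -0.0106 after ligation. Signs turned for some genes that were not called. After ligation Ppard went to 0.159 and Nrf1 to 0.0424 on library totals. Ppargc1b went to -0.00392 by DESeq2, -0.00137 in the fit of 2 groups, -0.00256 without mitochondrially encoded genes and -0.0805 with stems summed. With cells against sham, library totals gave 0.0740 for Ppard, 0.0117 for Ppargc1a and 0.0139 for Esrra. With single libraries left out, ligation against sham spanned -0.135 to 0.0820 for Ppard and -0.214 to 0.208 for Ppargc1b, cells against ligation -0.0979 to 0.0126 for Ppard, -0.0679 to 0.00589 for Rxra and -0.207 to 0.0139 for Nrf1, and cells against sham -0.191 to 0.0262 for Ppard. The cause of these shifts was not tested. Depth limits Ppara and Ppargc1b most, with as few as 34 and 29 counts in a library.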
